A study of Homo sapiens with 14 samples.

Results

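Proteins that leave the endoplasmic reticulum (ER) in COPII-coated vesicles, and those that COPI-coated vesicles bring back, are sorted by membrane proteins that cycle between the ER and the Golgi. The genes described here encode 32 such proteins of the early secretory pathway: the p24 proteins TMED1, TMED2, TMED3, TMED4, TMED5, TMED7, TMED9 and TMED10, the cargo lectins LMAN1, LMAN2 and LMAN2L with the soluble partner MCFD2, the KDEL receptors KDELR1, KDELR2 and KDELR3, SURF4, the cornichons CNIH1 and CNIH4, the YIPF family members YIF1A, YIF1B and YIPF1 to YIPF6, the ERGIC proteins ERGIC1, ERGIC2 and ERGIC3, and TVP23B, GOLT1B and BCAP31. They are a list of names with no threshold on a measured value, drawn up with earlier results of these data known, out of 19440 gene symbols in the count files, and all 32 passed the filter on low counts that left 9458 genes for testing.

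The study measured ribosome-protected mRNA fragments (footprints) in Flp-In T-REx 293 cells, a human embryonic kidney line made to carry inducible transgenes, and asked which nascent membrane proteins are bound during translation by the ER membrane protein complex (EMC). Microsomes were isolated, digested with micrococcal nuclease and solubilised; the cleared extract gave the input library, and the material bound by Flag antibody beads gave the immunoprecipitated (IP) library. The EMC6 line was an EMC6 knockout that expressed 3Flag-EMC6 from a doxycycline-inducible transgene (2 IP and 2 input libraries). The EMC7 line expressed inducible 3Flag-EMC7 (2 IP and 2 input libraries) and the EMC10 line inducible 3Flag-EMC10 (3 IP and 3 input libraries), and the labels name no knockout for either. All 3 lines received 0.5 to 1 ng/mL doxycycline and were harvested after 72 h, so every library, inputs included, comes from induced cells that make a tagged EMC subunit. The labels say neither whether a line is 1 clone nor whether its replicates are separate cultures. The p-values below therefore cover only the spread from library to library, which may be technical.

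Membrane proteins reach the ER membrane while they are being made. A type I protein such as a p24 protein or a cargo lectin has a cleaved signal peptide that is threaded through the Sec61 channel, 1 membrane segment near its end and a short cytosolic tail that binds vesicle coats. The EMC is an insertase and chaperone that is best known for placing the first membrane segment of multi-pass proteins whose N terminus faces the lumen, and for tail-anchored proteins. KDEL receptors, SURF4, the cornichons and the YIPF proteins are multi-pass and have no cleaved signal peptide; YIPF proteins expose a long N-terminal domain to the cytosol. The ERGIC proteins lie between these kinds, with a pair of membrane segments and a large luminal domain, as their yeast relatives Erv41 and Erv46 do.

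Gene counts were between 1335235 and 1784496 in EMC10 IPs, 2907065 and 3371471 in EMC10 inputs, 1477225 and 2248591 in EMC7 IPs, 2397165 and 3395114 in EMC7 inputs, 515302 and 960279 in EMC6 IPs, and 1692490 and 1835892 in EMC6 inputs. The message of the bait gene was higher in the IP of its own line, by 7.54 ± 0.25 (log2, SE) for EMC6, 5.71 ± 0.28 for EMC7 and 7.31 ± 0.18 for EMC10 (edgeR quasi-likelihood test, adjusted p = 7.19e-23, 1.56e-12 and 1.73e-26). Counts per gene symbol do not tell a tagged message from an endogenous one. EMC7 also stood higher in the other IPs: 1133 against 119 scaled footprints per 1000000 in the EMC6 line, and 1990 against 267 in the EMC10 line. The EMC6 message was likewise higher in EMC7 and EMC10 IPs, and EMC10 in EMC7 IPs, while EMC10 overlapped in the EMC6 line. The message of the line's own bait took 0.431% to 0.449% of the counts in EMC6 IPs, 14.4% to 15% in EMC7 IPs and 24.6% to 26.1% in EMC10 IPs. The EMC6 libraries stood apart: 9.02% to 12.1% of their reads were assigned to no gene feature, against 2.53% to 4.71% in the other lines. Of 6 marker genes for these cells, CDH2, VIM and ENO2 were abundant, while PAX2 had at most 9 counts in an input, NEFM at most 1 and LHX1 none; of 8 markers of other cell types, 7 had at most 2 counts in any input and CD34 had at most 5.

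Changes are given below as the log2 of IP over input after TMM scaling, the trimmed-mean scaling of edgeR that centres the bulk of the genes, with the standard error of the fit and p-values adjusted over all 9458 genes (Benjamini-Hochberg, threshold 0.05). The median of all genes was -0.12 with the EMC6 bait, -0.14 with EMC7, -0.17 with EMC10 and -0.19 when the 3 lines were averaged. Levels are footprints per 1000000 after TMM scaling (counts per scaled library, CPM). They were not corrected for length, so they are compared between libraries and not between genes, and more mRNA and more ribosomes per mRNA cannot be told apart in them. For some messages a fit that also pairs IP and input by replicate number is given. Its SEs were smaller, 0.04 against 0.10 for KDELR1 over the 3 lines, so its p-values may understate the spread between pairs.

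Over the mean of the 3 lines, 26 of the 32 messages rose in the IP and 1, TMED5, fell, where 23.7% of all genes rose and 26.9% fell. The median of the 32 was 0.93 (n = 14 libraries). In the single lines 23 rose with the EMC6 bait (13 without EMC6 IP replicate 2), where 17.6% of all genes rose and 9.27% fell, 24 rose with the EMC7 bait, where 20.4% rose and 9.68% fell, and 22 rose with the EMC10 bait, where 19.9% rose and 13.9% fell. None of the 32 fell in a single line. The zero of the scale is set by the scaling: with library size alone, which moved the median of all genes over the 3 lines to -1.13, 13 of the 32 rose and 14 fell, where 12.1% of all genes rose and 76.9% fell. With the bait messages left out of the library size the median of all genes was -0.92, 15 rose and 9 fell (14.5% and 71.0% of all genes). With scaling on a list of ER luminal proteins (59 listed, of which 58 passed the filter for testing) that median was -0.70, 18 rose and 7 fell (16.8% and 61.3%). Such a change of scaling moves all messages of a library alike, and each "rose" or "fell" below holds under TMM scaling.

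**Figure D1:**
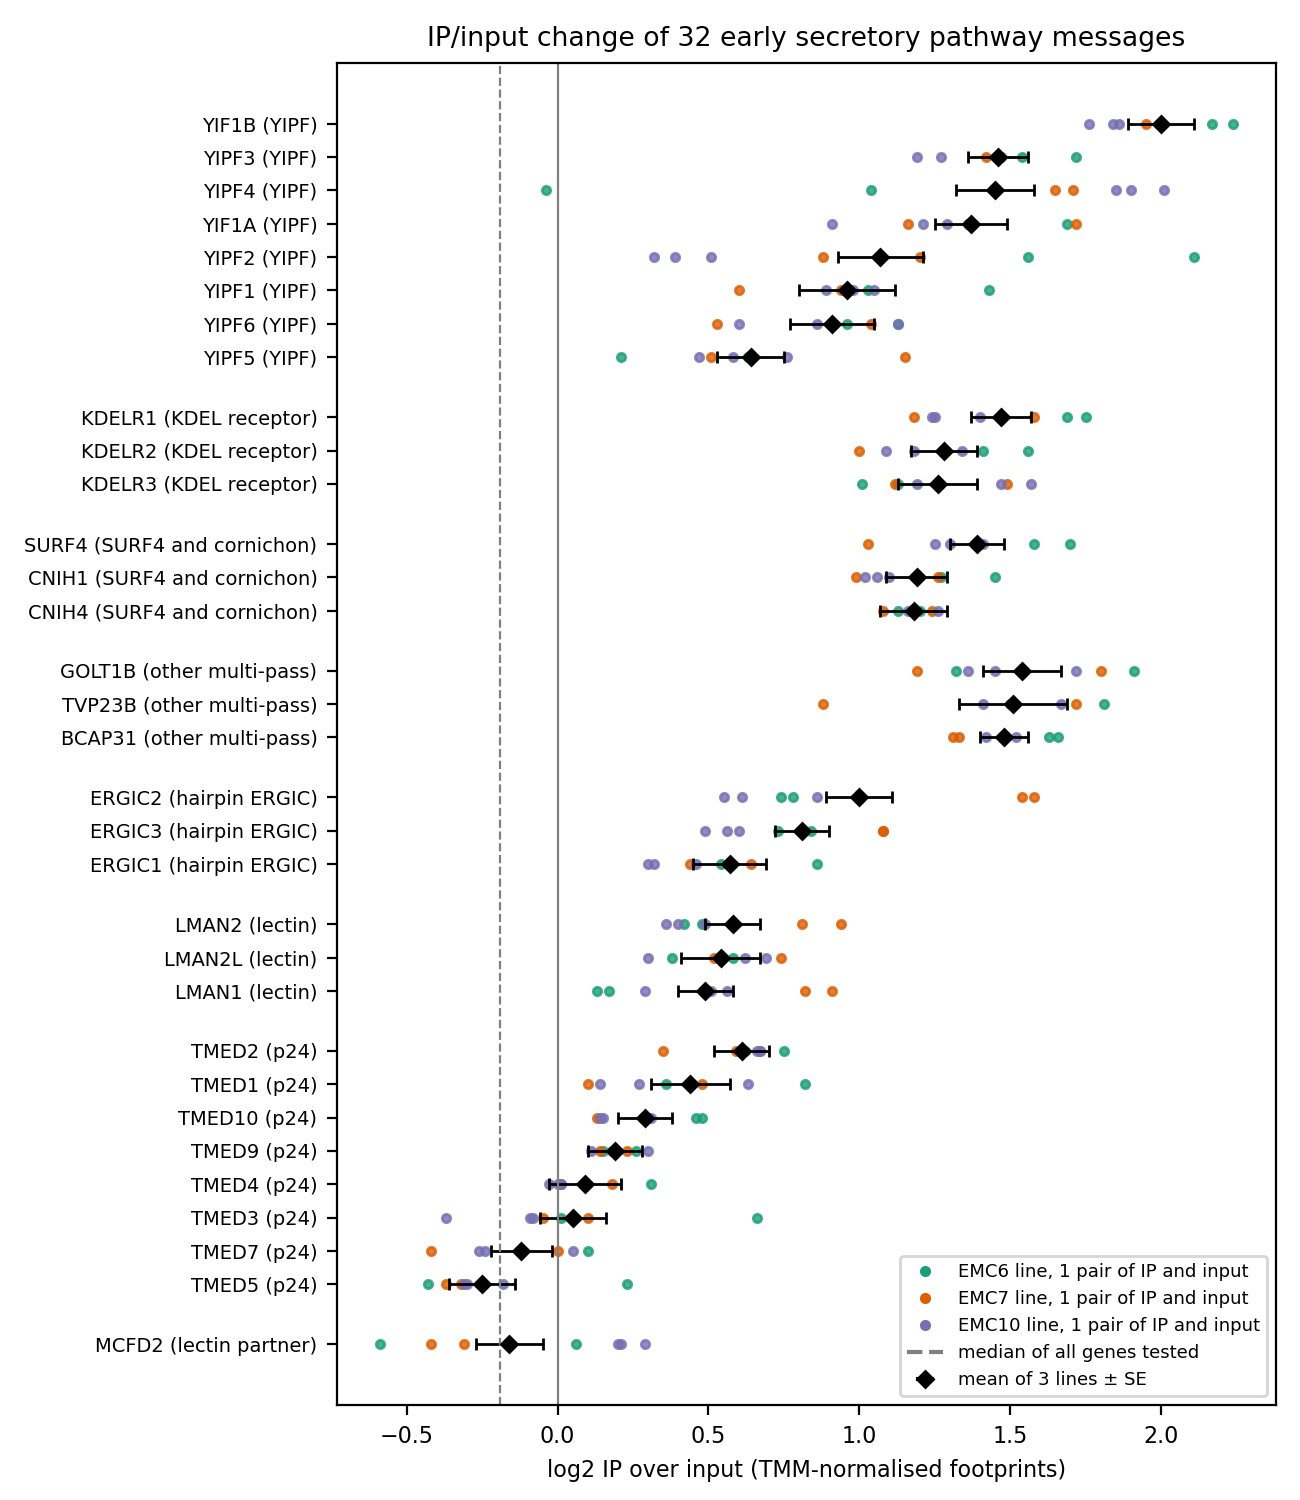
Log2 of IP over input (x axis) for each of the 32 messages, grouped by family. Coloured dots are single pairs of IP and input (EMC6 2, EMC7 2 and EMC10 3 pairs), black diamonds are the mean of the 3 lines with the SE of the fit, and the dashed line is the median of all genes tested, -0.19. YIF1B lies highest at 2.00 and TMED5 lowest at -0.25, and the p24 and lectin diamonds all lie at or below 0.61 (TMM scaling; with library size alone the p24 and lectin values are all below 0).

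The 3 KDEL receptors bind escaped ER luminal proteins in the Golgi through their C-terminal KDEL signal and return them to the ER. All 3 rose in each of the 3 lines, and their changes averaged over lines lay between 1.26 and 1.47. KDELR1 (chromosome 19, 48382575 to 48397412, minus strand, GRCh38.p14) changed most. It had 791 and 980.4 CPM in EMC6 IPs, against 235 and 303 CPM in EMC6 inputs. It had 1747 and 1539.7 CPM in EMC7 IPs, against 584 and 678 CPM in EMC7 inputs, and 1324, 1643 and 1656 CPM in EMC10 IPs, against 555, 621 and 699 CPM in EMC10 inputs. Every IP library lay above every input library of its line, and the change was 1.47 ± 0.10 (edgeR, adjusted p = 6.8e-16). KDELR2 changed by 1.28 ± 0.11 (edgeR, adjusted p = 5.11e-13).

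KDELR3 (chromosome 22, 38468096 to 38483447, plus strand) had the smallest change of the 3 receptors and few footprints, 25 to 182 counts a library. It had 46.7 and 71.2 CPM in EMC6 IPs, against 23.5 and 32.5 CPM in EMC6 inputs. It had 92.0 and 78.3 CPM in EMC7 IPs, against 42.4 and 28.0 CPM in EMC7 inputs, and 79.5, 87.8 and 82.2 CPM in EMC10 IPs, against 28.8, 29.7 and 36.2 CPM in EMC10 inputs. The groups did not overlap in any line, and the change over the 3 lines was 1.26 ± 0.13 (edgeR, adjusted p = 1.34e-10); in the EMC6 line it was 1.12 ± 0.26, and 0.72 (edgeR, adjusted p = 0.243) without EMC6 IP replicate 2. KDELR3 overlaps DDX17 on the other strand, and DDX17 has more counts (10006 against 1366 over all libraries). KDELR3 counts are therefore uncertain, the strand setting of the counting being not given in the sources used here.

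SURF4 is a cargo receptor for soluble secreted proteins, and the cornichons are its counterparts for membrane cargo, first known from the export of growth factor precursors in Drosophila. All 3 rose in each line. SURF4 (chromosome 9, 133361464 to 133377949, minus strand) had 538 and 663 CPM in EMC6 IPs, against 166 and 222 CPM in EMC6 inputs. It had 1423 and 1191 CPM in EMC7 IPs, against 543 and 584 CPM in EMC7 inputs, and 1357, 1232 and 1486 CPM in EMC10 IPs, against 512, 519.7 and 605 CPM in EMC10 inputs. The IP libraries of each line all lay above its inputs, with a change of 1.39 ± 0.09 (edgeR, adjusted p = 2.71e-15). CNIH4 changed least of the 3, by 1.18 ± 0.11 (edgeR, adjusted p = 1.47e-11), and CNIH1 by 1.19 ± 0.10 (edgeR, adjusted p = 3.45e-13).

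CNIH4 (chromosome 1, 224356803 to 224379452, plus strand), a cornichon tied to the export of G protein-coupled receptors, had the narrowest spread over pairs of its group. It had 335 and 512 CPM in EMC6 IPs, against 146 and 233 CPM in EMC6 inputs. It had 746 and 578 CPM in EMC7 IPs, against 315 and 273 CPM in EMC7 inputs, and 589, 675 and 692 CPM in EMC10 IPs, against 262, 282 and 309 CPM in EMC10 inputs. Its change was between 1.08 and 1.26 in the 7 pairs of IP and input. The 2 EMC6 inputs differed by more than the spread in other lines, and the EMC6 IPs differed the same way.

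The YIPF family consists of multi-pass proteins of the ER exit sites and the Golgi, related to the yeast proteins Yip1 and Yif1 that bind Rab GTPases. All 8 rose over the mean of the 3 lines, with a family median of 1.22 and a range from 0.64 to 2.00. YIF1B (chromosome 19, 38303558 to 38321887, minus strand), known for the transport of a serotonin receptor in neurons, had the highest change of all 32 messages. It had 400.1 and 645 CPM in EMC6 IPs, against 84.6 and 143 CPM in EMC6 inputs. It had 760.0 and 722 CPM in EMC7 IPs, against 191 and 187 CPM in EMC7 inputs, and 628, 651 and 715 CPM in EMC10 IPs, against 173, 182 and 211 CPM in EMC10 inputs. The groups were far apart in every line, and the change was 2.00 ± 0.11 (edgeR, adjusted p = 1.31e-17), with 1.76 to 2.24 in single pairs. Its close paralogue YIF1A changed by 1.37 ± 0.12 (edgeR, adjusted p = 1.88e-12).

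YIPF5 (chromosome 5, 144158162 to 144170659, minus strand), the human Yip1 that forms a complex with YIF1A, had the smallest change of the family. It had 59.8 and 80.0 CPM in EMC6 IPs, against 52.4 and 52.0 CPM in EMC6 inputs. It had 176 and 129.5 CPM in EMC7 IPs, against 79.6 and 91.0 CPM in EMC7 inputs, and 117, 116 and 150.0 CPM in EMC10 IPs, against 78.4, 84.2 and 88.9 CPM in EMC10 inputs. No IP library lay below an input of its line, and the change was 0.64 ± 0.11 over the 3 lines (edgeR, adjusted p = 9.31e-06). With the EMC6 bait alone it was 0.45 ± 0.23 (edgeR, adjusted p = 0.147), which passed with IP and input paired (edgeR, adjusted p = 0.0484).

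The other YIPF messages lay between these. YIPF3 and YIPF4, Golgi proteins that form a complex with each other, changed by 1.46 ± 0.10 and 1.45 ± 0.13 on average over lines (edgeR, adjusted p = 1.38e-15 and 2.05e-12), and the values of YIPF4 differed among the lines as described further on. YIPF1, YIPF2 and YIPF6 changed by 0.96 ± 0.16, 1.07 ± 0.14 and 0.91 ± 0.14 (edgeR, adjusted p = 3.89e-06, 2.95e-08 and 1.03e-06). YIPF1 had 17 to 93 counts a library, so its values rest on few footprints.

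TVP23B, GOLT1B and BCAP31 are multi-pass proteins outside these families, and all 3 rose in each line. GOLT1B (chromosome 12, 21501789 to 21518408, plus strand), a relative of the yeast Golgi transport protein Got1, had 87.9 and 112 CPM in EMC6 IPs, against 23.5 and 44.8 CPM in EMC6 inputs. It had 193 and 139 CPM in EMC7 IPs, against 55.4 and 61.1 CPM in EMC7 inputs, and 141, 192 and 163 CPM in EMC10 IPs, against 54.9, 58.3 and 59.7 CPM in EMC10 inputs. The groups did not overlap, and the change of 1.54 ± 0.13 (edgeR, adjusted p = 3.89e-13) came out at 1.56, 1.53 and 1.53 with the EMC6, EMC7 and EMC10 baits. BCAP31, an ER chaperone for the export of membrane proteins, changed by 1.48 ± 0.08 (edgeR, adjusted p = 1.34e-17). TVP23B, a Golgi protein, changed by 1.51 ± 0.18 (edgeR, adjusted p = 6.7e-09) on 10 to 60 counts a library, and reads may be shared with its near-identical copy TVP23C, so its counts are uncertain.

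ERGIC1, ERGIC2 and ERGIC3 recycle between the ER and the cis-Golgi. Each rose when the lines were averaged, by 0.57 ± 0.12, 1.00 ± 0.11 and 0.81 ± 0.09 (edgeR, adjusted p = 0.000208, 4.4e-10 and 3.59e-10). ERGIC1 (chromosome 5, 172834251 to 172952683) had 48.6 and 104 CPM in EMC6 IPs, against 34.0 and 57.5 CPM in EMC6 inputs, and these overlapped. It had 168 and 173 CPM in EMC7 IPs, against 124 and 111 CPM in EMC7 inputs, and 142, 152 and 140.4 CPM in EMC10 IPs, against 114, 111 and 115 CPM in EMC10 inputs. The EMC7 and EMC10 groups did not overlap. The ERGIC1 change depended on EMC6 IP replicate 2: without it the value over the 3 lines was 0.32 (edgeR, adjusted p = 0.0686) and that of the EMC6 line was 0.07, against 0.81 with it. With the EMC10 bait it was 0.36 (edgeR, adjusted p = 0.109), and adjusted p = 0.0016 with IP and input paired.

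**Figure D2:**
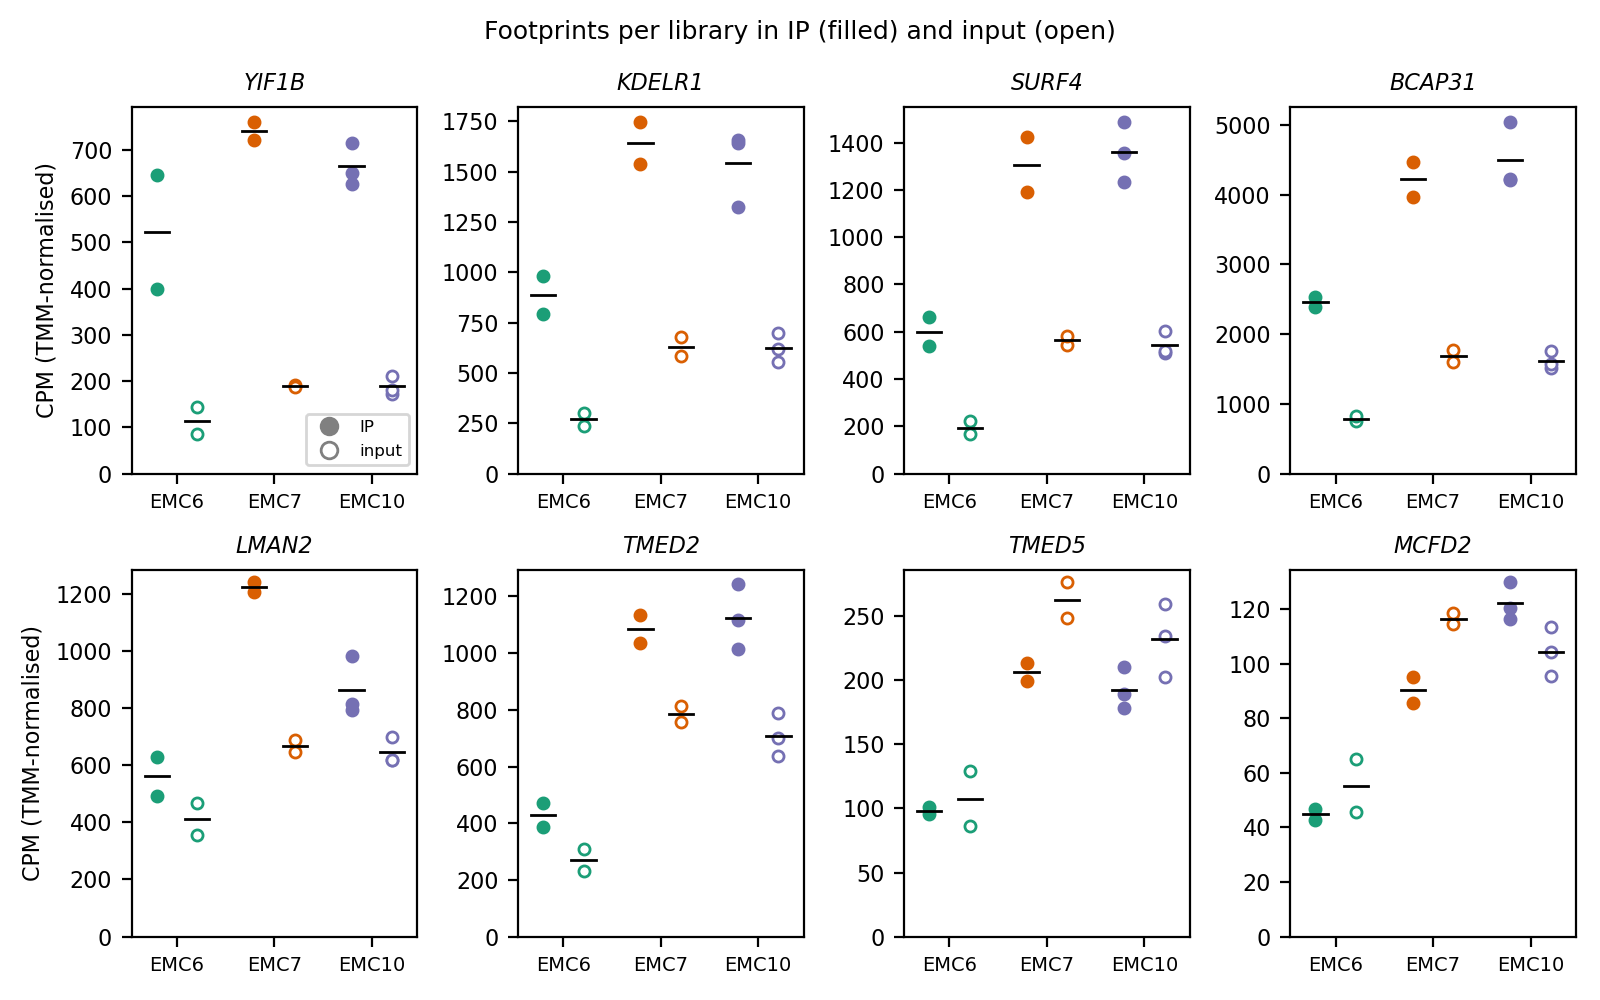
TMM-scaled CPM (y axes, from 0, a scale for each gene) of 8 messages in every IP (filled) and input (open) library of the 3 lines, with a bar at each group mean. YIF1B, KDELR1, SURF4 and BCAP31 have all IP libraries above the inputs of their line, while in MCFD2 and TMED5 the IP libraries lie among or below the inputs in the EMC6 and EMC7 lines.

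The p24 proteins form hetero-oligomers that bind both COPI and COPII coats and carry cargo such as proteins with a GPI anchor. Of the 8, TMED1, TMED2 and TMED10 rose over the mean of the 3 lines, TMED5 fell and 4 were not called. By the same test 23.7% of all genes rose and 26.9% fell. The family median was 0.14, which is 0.33 above that of all genes. With library size alone all 8 values were below 0, where the median of all genes was -1.13. TMED2 (chromosome 12, 123584552 to 123598582, plus strand), the beta-type member that pairs with TMED10, had the largest change. It had 387 and 472 CPM in EMC6 IPs, against 231 and 307 CPM in EMC6 inputs. It had 1135 and 1034 CPM in EMC7 IPs, against 755 and 812 CPM in EMC7 inputs, and 1015, 1118 and 1244 CPM in EMC10 IPs, against 638, 700.4 and 789 CPM in EMC10 inputs. The IP libraries lay above the inputs in each line, with a change of 0.61 ± 0.09 (edgeR, adjusted p = 1.03e-06), and with library size alone it was -0.34. TMED10 changed by 0.29 ± 0.09 (edgeR, adjusted p = 0.00603). TMED1 changed by 0.44 ± 0.13 (edgeR, adjusted p = 0.00416), and by 0.22 (edgeR, adjusted p = 0.28) without EMC6 IP replicate 2.

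TMED5 (chromosome 1, 93149742 to 93180413, minus strand), a gamma-type p24 protein that carries GPI-anchored cargo, was the only one of the 32 below its inputs by the test. It had 101 and 95.3 CPM in EMC6 IPs, against 86.4 and 129 CPM in EMC6 inputs, which overlapped. It had 214 and 199.5 CPM in EMC7 IPs, against 277 and 249 CPM in EMC7 inputs, and 178, 189 and 210.2 CPM in EMC10 IPs, against 203, 235 and 259.8 CPM in EMC10 inputs. The EMC7 groups did not overlap and the EMC10 groups did. The change was -0.25 ± 0.11 (edgeR, adjusted p = 0.0477), which is -0.07 relative to the median of all genes, and adjusted p rose to between 0.0615 and 0.315 in 10 of 14 fits that left out 1 library (-0.28 to -0.13). With IP and input paired it was called in the EMC7 and EMC10 lines (-0.35 and -0.27, edgeR, adjusted p = 0.00262 and 0.00635).

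TMED3, TMED4, TMED7 and TMED9 did not pass the test. TMED9 (chromosome 5, 177592203 to 177597242), an alpha-type p24 protein, had 363 and 384 CPM in EMC6 IPs, against 303 and 347 CPM in EMC6 inputs. It had 623 and 660.2 CPM in EMC7 IPs, against 529 and 600.3 CPM in EMC7 inputs, and 587, 615 and 698 CPM in EMC10 IPs, against 544, 499 and 617 CPM in EMC10 inputs. All 7 pairs were above 0 (0.11 to 0.30); the change of 0.19 ± 0.09 had adjusted p = 0.0714 in the edgeR fit, and adjusted p = 0.000185 with IP and input paired. TMED4, the other alpha-type member, had 226 and 345 CPM in EMC6 IPs, against 183 and 344 CPM in EMC6 inputs. It had 374 and 319.6 CPM in EMC7 IPs, against 329.9 and 299.8 CPM in EMC7 inputs, and 299.9, 348 and 344 CPM in EMC10 IPs, against 306, 346 and 344 CPM in EMC10 inputs. The groups overlapped in each line (0.09 ± 0.12, edgeR, adjusted p = 0.537), and leaving out EMC6 input replicate 2 gave 0.29 (edgeR, adjusted p = 0.0095).

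TMED3 and TMED7 are gamma-type members, as are TMED1 and TMED5. TMED3 had 103 and 93.1 CPM in EMC6 IPs, against 65.5 and 92.7 CPM in EMC6 inputs. It had 137 and 122 CPM in EMC7 IPs, against 127 and 127 CPM in EMC7 inputs, and 96.3, 117 and 139 CPM in EMC10 IPs, against 125, 124 and 148 CPM in EMC10 inputs. The change was 0.05 ± 0.11 (edgeR, adjusted p = 0.705), with 3 of 7 pairs above 0. TMED7 had 138 and 166 CPM in EMC6 IPs, against 130.2 and 181 CPM in EMC6 inputs. It had 329 and 267 CPM in EMC7 IPs, against 329 and 359 CPM in EMC7 inputs, and 252, 276 and 339 CPM in EMC10 IPs, against 301, 326 and 328 CPM in EMC10 inputs. The change was -0.12 ± 0.10 (edgeR, adjusted p = 0.347). A separate entry for the read-through transcript TMED7-TICAM2 held 90.6% to 94.7% as many counts as TMED7, so the same reads may have been counted for both and the TMED7 counts are uncertain.

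The lectins bind high-mannose glycans of their cargo. LMAN1 carries coagulation factors V and VIII out of the ER together with MCFD2, LMAN2 cycles through the early Golgi and LMAN2L is its ER-resident relative. The 3 lectins rose when the lines were averaged, by 0.49 ± 0.09, 0.58 ± 0.09 and 0.54 ± 0.13 (edgeR, adjusted p = 2.07e-05, 1.78e-06 and 0.000542), and with library size alone they were below 0 (-0.45, -0.36 and -0.40). LMAN2 (chromosome 5, 177331567 to 177351668, minus strand) had 494 and 628 CPM in EMC6 IPs, against 354 and 469 CPM in EMC6 inputs. It had 1207 and 1239.9 CPM in EMC7 IPs, against 687 and 645 CPM in EMC7 inputs, and 815, 793 and 981 CPM in EMC10 IPs, against 618, 618 and 699 CPM in EMC10 inputs. The groups did not overlap in any line, and the gap between IP and input was widest in the EMC7 line.

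MCFD2 (chromosome 2, 46901870 to 46941855, minus strand), a luminal protein with EF hands and no membrane segment of its own, was not called. It had 46.7 and 42.7 CPM in EMC6 IPs, against 45.6 and 65.0 CPM in EMC6 inputs. It had 85.6 and 95.1 CPM in EMC7 IPs, against 114 and 118 CPM in EMC7 inputs, and 130.1, 116 and 120.4 CPM in EMC10 IPs, against 114, 95.4 and 104 CPM in EMC10 inputs. The IP libraries lay below the inputs in the EMC7 line and above them in the EMC10 line, and over the 3 lines the change was -0.16 ± 0.11 (edgeR, adjusted p = 0.263). With IP and input paired it was called in the EMC7 line (-0.37, edgeR, adjusted p = 0.0187).

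Counted without a model, every IP library lay above every input library of its line for 23 of the 32 messages with the EMC6 bait, 27 with EMC7 and 26 with EMC10, where 25.1%, 29.1% and 23.0% of all genes did so. For 3 messages of the EMC7 line, TMED5, TMED7 and MCFD2, every IP library lay below every input, where 36.7% of all genes did so. None did in the EMC6 and EMC10 lines, where 30.4% and 26.9% of all genes did. TMED7 qualified by a narrow margin, with 328.61 CPM in EMC7 IP replicate 1 against 328.79 CPM in EMC7 input replicate 1.

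The comparison named for these genes sets the 14 multi-pass KDEL receptors, SURF4, cornichons and YIPF proteins against the 11 type I p24 proteins and lectins. All 14 multi-pass messages rose over the mean of the 3 lines, with a median of 1.27 and a range from 0.64 to 2.00, which is 1.46 above the median of all genes. Over all genes 23.7% rose and 26.9% fell. Of the 11 type I messages 6 rose and 1 fell under TMM scaling, with a median of 0.29 and a range from -0.25 to 0.61, 0.48 above the median of all genes. With library size alone 12.1% of all genes rose and 76.9% fell. None of the 11 type I messages then rose and all 11 fell, while 10 of the 14 multi-pass messages rose and 1 fell. The lowest multi-pass value, that of YIPF5, was above the highest type I value, that of TMED2. Their SEs of 0.11 and 0.09 exceed the gap, so these neighbours in the order do not differ beyond their error.

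In single lines 13 of 14 multi-pass messages rose with the EMC6 bait, 14 with the EMC7 bait and 13 with the EMC10 bait, against 4 of 11 type I messages with each. Over all genes 17.6%, 20.4% and 19.9% rose with the EMC6, EMC7 and EMC10 baits. With the EMC6 bait LMAN2 and TMED1 lay near the threshold (edgeR, adjusted p = 0.0499 and 0.045). Neither passed there without EMC10 IP replicate 1 (edgeR, adjusted p = 0.0636 and 0.0513). A fit of the EMC6 libraries alone called 10 multi-pass messages and no type I message higher. Leaving out 1 library gave 0 to 7 type I and 10 to 13 multi-pass messages that rose with the EMC6 bait, 2 to 4 and 11 to 14 with the EMC7 bait, and 1 to 4 and 13 with the EMC10 bait. With the EMC6 bait no type I message rose without EMC6 input replicate 1 or without EMC6 IP replicate 2, and 7 rose without EMC6 input replicate 2. The difference between the class medians, taken within each pair of IP and input, was 1.05 ± 0.10 (SD, n = 7 pairs) and lay between 0.96 and 1.26. In the fit it was 0.98, and 0.97 with IP and input paired; it does not depend on the scaling, since both classes shift together. Between 0 and 3 of the 14 multi-pass messages lay below the highest type I message in a pair, and the lowest of them was YIPF2, YIPF4 or YIPF5 in each pair.

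**Figure D3:**
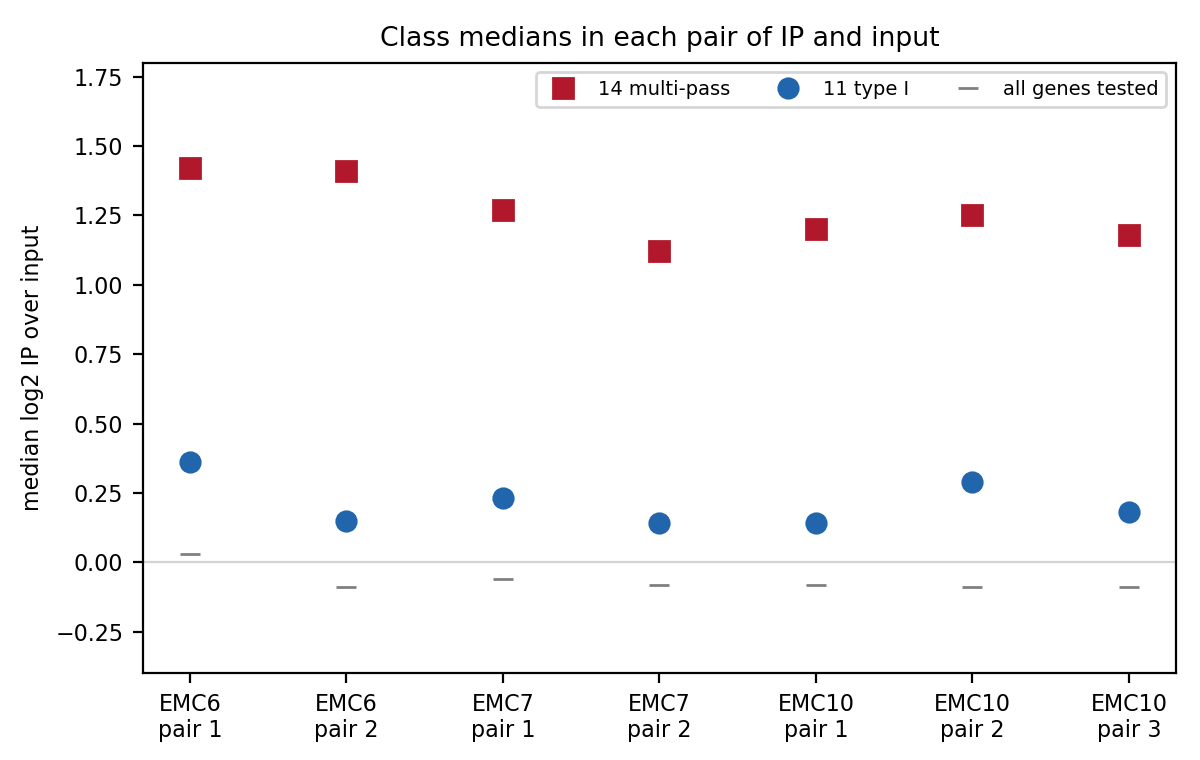
Median log2 IP over input (y axis) of the 14 multi-pass messages (red squares), the 11 type I messages (blue circles) and all genes tested (grey bars) in each of the 7 IP and input pairs. Multi-pass medians lie between 1.12 and 1.42 and type I medians between 0.14 and 0.36; their distance is 0.96 to 1.26 whatever the scaling, while with library size alone the type I medians are below 0.

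Whether the 3 baits differed for these messages was asked by testing the difference of the IP over input change between lines. None of the 32 passed in edgeR, where 0.190% of all genes passed higher and 0.328% lower for EMC6 minus EMC7, 0.0634% and 0.0106% for EMC6 minus EMC10, and 0.148% and 0.0106% for EMC7 minus EMC10. At an unadjusted edgeR p under 0.05 there were 4, 2 and 5 of the 32, where 847, 590 and 621 of all 9458 genes were. DESeq2 called 0, 0 and 1 of the 32. The labels give an IP and an input of a line the same batch number, which was read as pairing; the deviations of these pairs correlated by 0.04 to 0.28. With that pairing in the edgeR fit 6, 3 and 5 of the 32 passed, where 6.31%, 2.23% and 4.38% of all genes did. These differences share libraries, and each line is also a different cell line. The paired SEs can lie below the spread of the pairs. YIPF4 in the EMC6 line had pair values of -0.04 and 1.04 but a paired SE of 0.18. The p-values with pairing are therefore weaker evidence than their size implies. The genes named in the next 3 paragraphs were chosen after their values were seen.

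With the EMC7 bait the changes of ERGIC2 and the lectins LMAN1 and LMAN2 stood higher than with the other baits, but no difference passed in the unpaired fit of all libraries. ERGIC2, the relative of yeast Erv41, had 71.0 and 81.1 CPM in EMC6 IPs, against 43.0 and 47.2 CPM in EMC6 inputs. It had 235 and 244 CPM in EMC7 IPs, against 80.7 and 82.0 CPM in EMC7 inputs, and 106, 113 and 147 CPM in EMC10 IPs, against 69.8, 77.4 and 81.4 CPM in EMC10 inputs. Its change was 0.77, 1.56 and 0.68 with the EMC6, EMC7 and EMC10 baits. The difference EMC7 minus EMC10 was 0.87 ± 0.23 (edgeR, adjusted p = 0.143) and 0.88 ± 0.16 with pairing (edgeR, adjusted p = 3.84e-06); unpaired it passed without EMC6 input replicate 1 or 2 (0.87 and 0.86, edgeR, adjusted p = 0.0247 and 0.0267). EMC6 minus EMC7 was -0.79 ± 0.28 (edgeR, adjusted p = 0.237) and -0.80 with pairing (edgeR, adjusted p = 0.00519).

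LMAN1 had 529 and 659 CPM in EMC6 IPs, against 469.8 and 602 CPM in EMC6 inputs. It had 2132 and 2008 CPM in EMC7 IPs, against 1205 and 1072 CPM in EMC7 inputs, and 1378, 1309.7 and 1651 CPM in EMC10 IPs, against 969.9, 1068 and 1119.7 CPM in EMC10 inputs. The EMC6 groups overlapped and the others did not, and the changes were 0.15, 0.86 and 0.46 with the EMC6, EMC7 and EMC10 baits. EMC6 minus EMC7 was -0.71 ± 0.24 (edgeR, adjusted p = 0.192), and with pairing -0.71 ± 0.11 (edgeR, adjusted p = 2.85e-08); unpaired it was -0.87 without EMC6 input replicate 1 (edgeR, adjusted p = 0.035). EMC7 minus EMC10 was 0.40 ± 0.21 (edgeR, adjusted p = 0.839), and 0.41 with pairing (edgeR, adjusted p = 0.000776). LMAN2 went the same way with pairing, at -0.43 for EMC6 minus EMC7 and 0.46 for EMC7 minus EMC10 (edgeR, adjusted p = 0.00632 and 0.000308). Unpaired, the LMAN2 differences did not pass (edgeR, adjusted p = 0.66 and 0.733). With pairing ERGIC3 was also 0.53 higher for EMC7 than for EMC10 (edgeR, adjusted p = 2.95e-06), and MCFD2 was lower, at -0.60 (edgeR, adjusted p = 0.0154). Neither passed unpaired (edgeR, adjusted p = 0.446 for ERGIC3 and 0.544 for MCFD2).

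YIPF4 and YIPF2 had positive changes with the EMC6 bait, and their differences from the other baits had opposite signs. YIPF4 had 41.1 and 111 CPM in EMC6 IPs, against 43.0 and 53.7 CPM in EMC6 inputs. It had 269 and 258 CPM in EMC7 IPs, against 82.4 and 82.0 CPM in EMC7 inputs, and 276, 262 and 306 CPM in EMC10 IPs, against 68.4, 72.8 and 81.7 CPM in EMC10 inputs. The 2 EMC6 IPs disagreed with each other, and without EMC6 IP replicate 2 the EMC6 change of 0.74 was -0.25 (edgeR, adjusted p = 0.745). With pairing EMC6 minus EMC7 was -0.98 and EMC6 minus EMC10 was -1.21 (edgeR, adjusted p = 0.000118 and 5.79e-07), and without it -0.94 and -1.18 (edgeR, adjusted p = 0.226 and 0.296). They rested on the EMC6 IPs: unpaired, they were -1.92 and -2.16 without EMC6 IP replicate 2 (edgeR, adjusted p = 0.00238 and 0.000221) and -0.35 and -0.61 without EMC6 IP replicate 1 (edgeR, adjusted p = 0.71 and 0.358). YIPF2 had 46.7 and 65.7 CPM in EMC6 IPs, against 10.8 and 22.2 CPM in EMC6 inputs. It had 79.8 and 77.3 CPM in EMC7 IPs, against 43.5 and 33.8 CPM in EMC7 inputs, and 62.6, 54.6 and 62.1 CPM in EMC10 IPs, against 48.0, 38.7 and 50.1 CPM in EMC10 inputs. The changes were 1.79, 1.01 and 0.39, and EMC6 minus EMC10 was 1.41 ± 0.34 (edgeR, adjusted p = 0.185) and 1.34 with pairing (edgeR, adjusted p = 0.000432). Unpaired, it was 2.15 without EMC6 input replicate 2 (edgeR, adjusted p = 0.000332) and 1.71 without EMC6 IP replicate 1 (edgeR, adjusted p = 0.0222), and EMC6 minus EMC7, 0.78 with all libraries (edgeR, adjusted p = 0.492), was 1.54 without EMC6 input replicate 2 (edgeR, adjusted p = 0.0143) and 0.38 without EMC6 input replicate 1 (edgeR, adjusted p = 0.814). YIPF2 overlaps CARM1 on the other strand (1405 against 1076 counts over all libraries), so its counts are uncertain. SURF4 and BCAP31 were 0.41 and 0.32 higher for EMC6 than for EMC7 with pairing (edgeR, adjusted p = 0.013 and 0.0354), and KDELR1 0.42 higher for EMC6 than for EMC10 (edgeR, adjusted p = 0.00641). Unpaired, these differences of SURF4, BCAP31 and KDELR1 did not pass (edgeR, adjusted p = 0.678, 0.755 and 0.803).

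**Figure D4:**
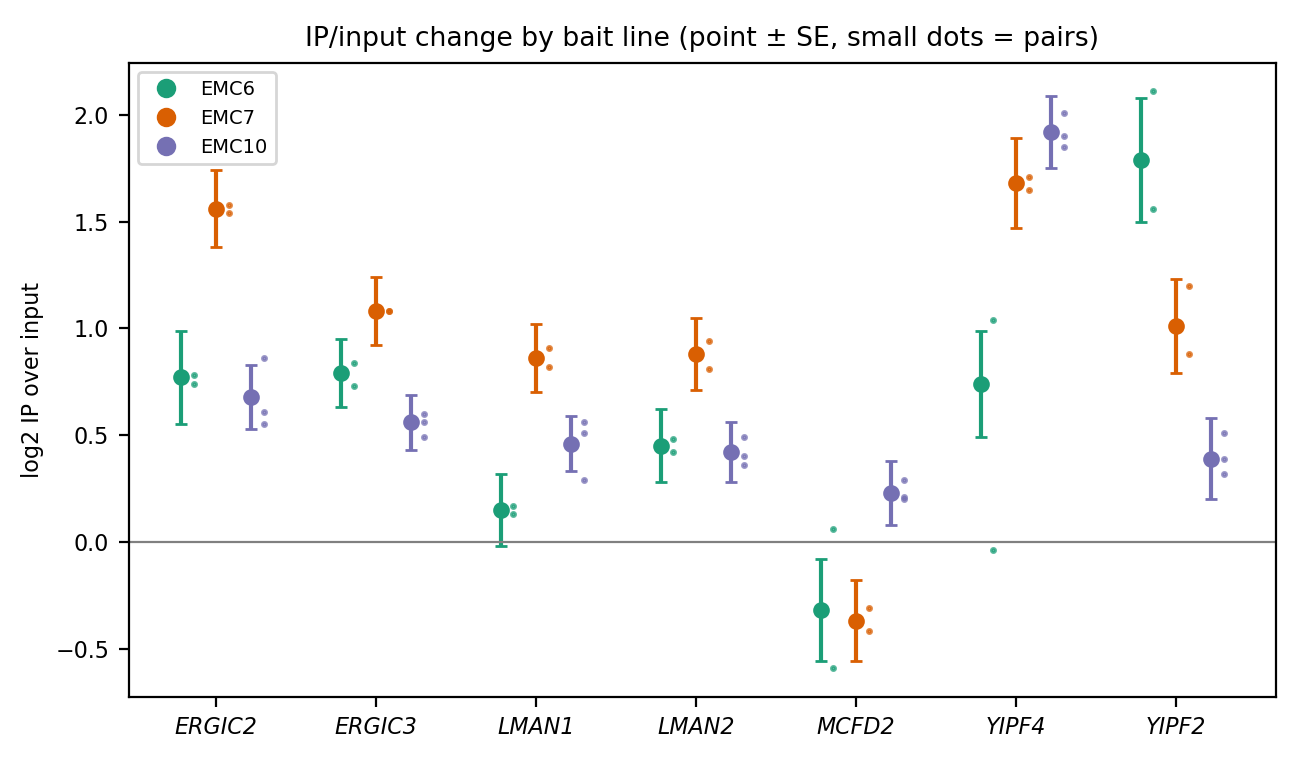
Log2 IP over input (y axis) of 7 messages with each bait, as the fitted change with its SE (large points) and single pairs (small dots). ERGIC2 stands at 1.56 with the EMC7 bait, against 0.77 and 0.68 with EMC6 and EMC10, and the YIPF4 pairs of the EMC6 line span 0 (lowest pair -0.04).

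Across the 32 messages the changes with different baits ran alike, as a description with no test: Pearson's r was 0.82 for EMC6 and EMC7, 0.80 for EMC6 and EMC10 and 0.89 for EMC7 and EMC10 (Spearman's rho 0.77, 0.78 and 0.90). Over all genes tested r was 0.75, 0.77 and 0.82, so the members were close to the genes as a whole in this.

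Before any IP, 30 of the 32 messages were lower in the EMC6 inputs than in the mean of the EMC7 and EMC10 inputs and none was higher, where 21.8% of all genes were lower and 15.3% higher. SURF4 stood lowest at -1.51 ± 0.16 and TMED2 next at -1.47 ± 0.15 (edgeR, adjusted p = 2.4e-09 and 3.13e-09), and the median of the 32 was -0.98, against 0.07 for all genes. KDELR3 and TMED4 were not called, at -0.25 ± 0.19 and -0.30 ± 0.18 (edgeR, adjusted p = 0.315 and 0.194), and without EMC6 input replicate 2 TMED4 was -0.88 (edgeR, adjusted p = 7.23e-05). Of 58 ER luminal proteins 53 were lower, with a median of -0.99, while 32 cytosolic coat proteins had a median of 0.15 with 7 higher and 1 lower. Scaled on the luminal messages, 11 of the 32 were higher in the EMC6 inputs and 2 were lower, where 77.5% of all genes were higher and 1.68% lower. The EMC6 libraries differ in genotype and in the share of reads assigned to no gene feature, and the part of these in this result was not tested.

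Other genes of the same pathway give the setting. Of 11 related proteins outside the 32, 4 had enough counts to test and all 4 rose when the lines were averaged: TVP23C by 2.06 on 3 to 14 counts a library, which may be shared with TVP23B and are uncertain, TEX261, a relative of the yeast export adaptor Svp26, by 1.95, the BCAP31 relative BCAP29 by 1.45 and the cornichon CNIH3 by 0.87 (edgeR, adjusted p = 8.12e-06, 3.51e-16, 2.3e-15 and 0.0024). Of 14 other membrane proteins of ER exit and the Golgi 11 rose and none fell, with a median of 1.25. Highest were TMEM115, a Golgi protein of retrograde transport, at 4.24 ± 0.10 and TMEM39A, an ER protein tied to COPII transport, at 3.23 ± 0.11 (edgeR, adjusted p = 2.23e-28 and 1.67e-24), and lowest were PREB, the activator of the COPII GTPase, at -0.46 and the collagen export receptor MIA3 at 0.01, neither called (edgeR, adjusted p = 0.173 and 0.958).

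For comparison, 23.7% of all genes tested rose and 26.9% fell. Of 32 subunits, GTPases and tethers of the COPI and COPII coats 5 rose and 17 fell, with a median of -0.34, from COPA at 0.86 and SAR1A at 0.50 to TFG at -0.89 and ARFGAP2 at -1.09 (edgeR, adjusted p = 1.32e-09, 7.9e-05, 3.81e-07 and 1.87e-05). With library size alone none of these 32 rose and 31 fell, where 12.1% of all genes rose and 76.9% fell. Of a list of 11 early pathway SNARE proteins and SEC22 relatives 2 rose and 2 fell, with a median of -0.25. SEC22C and SEC22A rose by 1.43 and 0.93, and STX18 and GOSR1 stood at -0.68 and -1.26 (edgeR, adjusted p = 1.02e-07, 1.67e-05, 0.0292 and 0.0071). The list took SEC22C and SEC22A in by family name, and apart from them no gene on it rose. Of 58 ER luminal proteins, many of them ligands of the KDEL receptors, 34 rose and none fell, with a median of 0.40, from UGGT2 and GANAB at 1.33 and 1.25 to HSP90B1 and PDIA3 at -0.15 and -0.18, which were not called (edgeR, adjusted p = 1.81e-13, 1.19e-15, 0.14 and 0.0749). Of the 58, 5 rose and 38 fell with library size alone, where 12.1% of all genes rose and 76.9% fell.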

How the data were processed

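Ribosome footprints were counted per gene in 14 libraries. The deposited files hold raw counts per gene symbol; per the submitters' processing notes, reads were handled with Cutadapt 4.1, Bowtie2 2.2.6 and TopHat2 2.1.0 on hg38. The counts are labelled as output of htseq-count. Its version, the annotation and the strand setting were not given in the sources used here. The 5 summary entries that name no gene were left out (2.76% to 12.5% of a library's total). Counts per library were 515302 to 3395114.

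From the deposited counts edgeR 4.0.16 (R 4.3.3, limma 3.58.1) was run on all 14 libraries together with filterByExpr, TMM scaling and the robust quasi-likelihood test, a mean for each line and fraction, and contrasts for each line, the mean of the 3 lines, the differences between lines and the inputs; p-values were adjusted by Benjamini-Hochberg over 9458 genes at 0.05. Pair values used a prior count of 0.5. The code was tested on simulated data. All 32 members matched RefSeq positions (GRCh38.p14).

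The members are a list of names that no threshold defined; they and the gene lists were chosen with earlier results of these data known. Values in every library are given for the member with the largest and the smallest change of each group (p24, lectins, KDEL receptors, SURF4 with cornichons, YIPF, and all others as 1 group) and for members not called; exceptions are marked. In other lists the 2 highest and 2 lowest are named. The labels' batch tag gives an IP and an input of 1 line the same number, read here as pairing; the correlation of their deviations was 0.28 for EMC6, 0.08 for EMC7 and 0.04 to 0.10 for EMC10 pairs. Replicates differed by more than counting error, so none was counted as a repeat. DESeq2 1.42.0, 3 other scalings, no filter, single lines, pairing and leaving out each library were the alternatives. Planned protein features were not computed.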

Additional observations from a re-analysis of the deposited data

How the results depend on the processing

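The difference between the class medians lay between 0.91 and 1.07 when 1 library was left out, and was 0.97 to 1.02 under every other alternative run; classes by predicted membrane segments were not run, since no protein table was used. Leaving out 1 library gave 13 to 26 members that rose in the EMC6 line, 17 to 24 in the EMC7 line, 19 to 23 in the EMC10 line and 24 to 28 over the 3 lines (0 to 1 that fell), 0 to 1 and 0 to 1 called higher and lower for EMC6 minus EMC7, 0 to 2 and 0 to 1 for EMC6 minus EMC10, 0 to 1 and 0 for EMC7 minus EMC10, and 24 to 31 lower in the EMC6 inputs. With the mean of the EMC7 and EMC10 lines, chosen after seeing the data, 24 rose and 1 fell, and TMED1 and TMED10 (0.31 and 0.21) were no longer called. The EMC6 line alone called 13 members higher, of which 10 were multi-pass, 3 lay outside the 2 classes and none was type I. The replicate block that pairs IP and input called 2 members lower in the EMC7 line (TMED5 and MCFD2) and 1 in the EMC10 line, 2 higher and 4 lower for EMC6 minus EMC7, 2 and 1 for EMC6 minus EMC10, and 4 and 1 for EMC7 minus EMC10; besides the calls already named it made TMED10 (0.22 in the EMC7 line, 0.20 in the EMC10 line), TMED1, TMED9 and YIPF2 (0.35, 0.20 and 0.40 in the EMC10 line) pass, and changed no other call. DESeq2 called no member lower over the 3 lines, and 1, ERGIC2, for EMC7 minus EMC10. Without a filter on low counts 1 member was higher and 1 lower for EMC6 minus EMC10.

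The scalings moved most counts. With library size alone 12 members rose and 6 fell in the EMC6 line, 8 and 10 in the EMC7 line, 4 and 17 in the EMC10 line, and 13 and 14 over the 3 lines; 1 was higher for EMC6 minus EMC7, 10 for EMC6 minus EMC10 and 1 for EMC7 minus EMC10. Without the bait messages it was 12 and 6, 9 and 9, 13 and 9, and 15 and 9. On the ER luminal scale it was 14 and 1, 9 and 7, and 14 and 3 in the EMC6, EMC7 and EMC10 lines, 7 fell over the 3 lines, and 11 were higher and 2 lower in the EMC6 inputs. Over all genes, 2243 rose and 2547 fell over the 3 lines in the edgeR fit, 1140 and 7276 with library size alone, 1367 and 6715 without the bait messages, 1589 and 5800 on the ER luminal scale, and DESeq2 called 1616 lower. In the EMC6 line 1666 rose and 877 fell, against 992 and 4307, 993 and 4258, and (fell only) 2204 under these scalings, 316 lower with DESeq2 and 128 lower in the line alone. In the EMC7 line 1930 rose and 916 fell, against 1004 and 6026, 1194 and 5146, and 1165 and 4854, with 545 lower in DESeq2 and 1446 with the replicate block. In the EMC10 line 1885 rose and 1318 fell, against 766 and 7158, 1120 and 5660, and (fell only) 3714, with 739 lower in DESeq2. For EMC6 minus EMC7 18 genes were higher and 31 lower, against 53 and 52 with DESeq2, 196 higher with library size alone, 79 higher without the bait messages, 178 and 8 on the ER luminal scale, 37 and 66 without a filter and 267 and 330 with the replicate block. For EMC6 minus EMC10 there were 6 and 1, against 493 higher with library size alone, 2 lower without a filter and 178 and 33 with the replicate block. For EMC7 minus EMC10 there were 14 and 1, against 45 higher with DESeq2, 95 with library size alone, 2 on the ER luminal scale, 34 without a filter and 348 and 66 with the replicate block. In the EMC6 inputs 1445 were higher and 2066 lower, against 713 higher with DESeq2, 3406 and 3368 higher with the first 2 scalings and 7330 and 159 on the ER luminal scale; no block could be fitted there, since inputs of different lines are not paired. With library size alone, the values in the EMC6 line were -0.01 for TMED1, -0.02 for TMED2, -0.55 for LMAN1 and -0.25 for LMAN2. In the EMC7 line that scaling gave -0.74 for TMED1, -0.55 for TMED2, -0.15 for LMAN1, -0.14 for LMAN2, 0.00 for YIPF2, -0.17 for YIPF5 and -0.48 for ERGIC1. In the EMC10 line it gave -0.77 for TMED1, -0.45 for TMED2, -0.66 for LMAN1, -0.70 for LMAN2, -0.89 for MCFD2, -0.73 for YIPF2, -0.51 for YIPF5, -0.75 for ERGIC1, -0.43 for ERGIC2 and -0.56 for ERGIC3. Averaged over the lines it gave -0.51 for TMED1, -0.34 for TMED2, -0.89 for TMED3, -0.86 for TMED4, -0.75 for TMED9, -0.65 for TMED10, -0.45 for LMAN1, -0.36 for LMAN2, -0.40 for LMAN2L, -0.31 for YIPF5, -0.04 for YIPF6, -0.38 for ERGIC1 and -0.14 for ERGIC3. With the bait messages left out of the library size, the values in the EMC6 line were -0.02 for TMED2, -0.54 for LMAN1 and -0.24 for LMAN2. In the EMC7 line it gave -0.52 for TMED1, -0.33 for TMED2 and -0.26 for ERGIC1. In the EMC10 line it gave -0.03 for TMED2, -0.24 for LMAN1, -0.28 for LMAN2, -0.48 for MCFD2, -0.09 for YIPF5, -0.02 for ERGIC2 and -0.15 for ERGIC3. Averaged over the lines this gave -0.29 for TMED1, -0.13 for TMED2, -0.68 for TMED3, -0.64 for TMED4, -0.54 for TMED9, -0.44 for TMED10, -0.24 for LMAN1, -0.15 for LMAN2, -0.19 for LMAN2L, -0.10 for YIPF5 and -0.17 for ERGIC1. Scaled on the ER luminal messages, the values in the EMC7 line were -0.31 for TMED2 and -0.24 for ERGIC1. Averaged over the lines they were -0.07 for TMED1, -0.46 for TMED3, -0.42 for TMED4, -0.32 for TMED9, -0.22 for TMED10 and -0.02 for LMAN1. Scaled on the ER luminal messages, the values in the EMC6 inputs were 0.10 for LMAN1, 0.07 for BCAP31, 0.88 for KDELR3, 0.83 for TMED4 and 0.53 for YIPF3. YIPF4 in the EMC6 line ranged from -0.25 without EMC6 IP replicate 2 to 1.30 without EMC6 IP replicate 1, and the cause was not tested. Each scaling shifts all members of a library by about the same amount. Members with few counts, such as TVP23B and YIPF1, have the widest errors among the members, and depth limits the EMC6 line most, whose IPs had 515302 and 960279 counts.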
